A study of Mus musculus with 6 samples.

Results

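The Hox genes of mouse adipose tissue were examined in 3 WT mice and 3 cavin-3 knockout (KO) mice, each measured on its own Affymetrix Mouse Gene 1.0 ST array. Members were all genes whose symbol is Hox, a cluster letter (a, b, c or d) and a number, with a probe set that carries 1 gene symbol, which gave 37 genes among the 19937 genes measured. Hoxb8 lay only on a probe set with several symbols and was not analysed here. WT and KO mice were 10-week-old littermates that had been fasted for 6 hours and kept on standard chow. In the KO mice both copies of the cavin-3 gene carry a lacZ/neo cassette in its place, in a C57BL/6 background, and the colony used for the arrays came from 1 targeted ES cell clone. The labels give the tissue as adipose and name no depot.

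Hox genes encode homeodomain transcription factors that set position along the body axis in the embryo. They lie in 4 clusters, and the paralog number gives the place within a cluster: low numbers are used toward the head, and numbers from 9 upward in the lumbar, sacral and tail region, in the limbs and in the urogenital tract. Adult tissues keep much of this pattern, and fat depots of different body regions are known to differ in it. Hoxa5 and Hoxc8, for instance, are known as higher in visceral and Hoxc9 and Hoxc10 as higher in subcutaneous fat of the mouse.

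The deposited values are linear intensities from RMA, which corrects background, normalizes the arrays by quantiles and summarises the probes of a gene as a probe set, and they were taken to log2 here. A difference of 1 on this scale is 2-fold. The adipocyte genes Adipoq (adiponectin), at 12.30 to 12.47, and Retn (resistin), at 12.77 to 12.97, were bright and even on all 6 arrays. Cavin-3 itself had a log2 intensity of 10.46 ± 0.43 (SD, n = 3) on the WT arrays, and of 6.90 ± 0.19 (SD, n = 3) where it had been deleted. WT replicate 2 and KO replicate 3 stood apart before any comparison of genotypes. Xist, the RNA of the inactive X chromosome, was at 11.14 and 11.34 on these arrays and at 3.70 to 6.30 on the other 4, and the Y-linked gene Uty was at 3.36 and 3.21 against 7.89 to 8.14, although the methods describe male animals only. For that reason results are also given without this pair of arrays. In a whole tissue, fewer cells of a type and less RNA per cell cannot be told apart.

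Cluster a shows in its neighbouring genes the contrast that runs through the Hox data, between genes that were even and genes that were uneven over the arrays. The RefSeq sequences (GRCm38.p6, minus strand) of the 250 bases before the start of an even gene, Hoxa7, and of the uneven genes Hoxa9 and Hoxa13 of the same cluster are shown 5′ to 3′ with each CG in capitals, since Hox promoters are known for CpG-rich DNA under Polycomb control. They lie at chr6:52218574-52218823, chr6:52227371-52227620 and chr6:52260881-52261130.
Hoxa7: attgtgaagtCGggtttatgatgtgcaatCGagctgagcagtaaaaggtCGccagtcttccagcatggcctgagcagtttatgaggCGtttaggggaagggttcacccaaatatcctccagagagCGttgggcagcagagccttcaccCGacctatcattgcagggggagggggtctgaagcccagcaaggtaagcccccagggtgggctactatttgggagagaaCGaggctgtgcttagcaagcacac
Hoxa9: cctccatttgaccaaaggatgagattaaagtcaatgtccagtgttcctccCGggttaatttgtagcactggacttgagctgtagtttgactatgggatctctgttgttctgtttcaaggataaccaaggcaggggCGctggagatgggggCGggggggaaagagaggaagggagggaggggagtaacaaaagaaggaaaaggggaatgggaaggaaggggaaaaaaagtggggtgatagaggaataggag
Hoxa13: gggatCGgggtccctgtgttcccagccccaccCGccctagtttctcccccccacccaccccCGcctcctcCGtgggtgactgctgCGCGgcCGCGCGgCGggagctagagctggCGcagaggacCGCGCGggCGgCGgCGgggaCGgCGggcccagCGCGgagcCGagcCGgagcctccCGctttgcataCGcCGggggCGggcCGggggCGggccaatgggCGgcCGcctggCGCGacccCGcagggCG
These windows hold 7, 3 and 35 CG pairs, so the uneven genes lie at both ends of this count. Of the 37 members, 21 had 23 promoters in the RefSeq table, each read from 250 bases before to 50 after the start, with a median of 15 CG against 7 over all 32851 promoters. The motif TGATNNAT, known for Pbx with a Hox partner, was found on either strand in 3 of the 23 (13%) and in 8.85% of all promoters. TTTATNG, known for posterior Hox and Cdx proteins, was found in 1 of the 23 (4.35%) and in 10.9% of all promoters. Neither motif was in the 3 windows shown.

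The clusters also hold microRNA genes, and the mature sequences of those with values here are shown 5′ to 3′ with the seed (bases 2 to 8) in capitals. Their credit is RefSeq (GRCm38.p6).
mmu-miR-10a-5p: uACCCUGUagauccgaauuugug
mmu-miR-10b-5p: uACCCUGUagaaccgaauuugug
mmu-miR-196a-5p: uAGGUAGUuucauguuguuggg
mmu-miR-196b-5p: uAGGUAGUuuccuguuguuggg
mmu-miR-615-3p: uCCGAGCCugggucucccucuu
The miR-10 sequences share the seed ACCCUGU and differ by U12A (miR-10a base, position from the 5′ end, miR-10b base). The miR-196 sequences share the seed AGGUAGU and differ by A12C (miR-196a base first). Mir196a-1 and Mir196a-2 give the same miR-196a-5p. In the RefSeq gene order, Mir10a lies within Hoxb3, Mir10b within Hoxd3 and Hoxd4, Mir615 within Hoxc5, Mir196b between Hoxa9 and Hoxa10, Mir196a-1 between Hoxb13 and Hoxb9, and Mir196a-2 between Hoxc10 and Hoxc9. The array probes lie in the gene of a microRNA and do not measure the mature form.

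Most Hox genes gave a signal in the middle of the array's scale. Of the 37, 26 (70.3%) had a mean log2 intensity at or above the median of all probe sets (6.10) and 11 lay below it. Of all 19937 genes, 11411 were at or above this median, since it also covers probe sets with no gene name. Probe sets differ in how well they bind, so the level of a gene can be compared between arrays but does not rank genes against each other. All 10 genes of paralog numbers 5 to 8 and 9 of 11 of numbers 1 to 4 were at or above the median, against 7 of 16 of numbers 9 to 13.

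In cluster a the means were 5.55 for Hoxa2, 6.44 for Hoxa3, 7.08 for Hoxa4, 7.88 for Hoxa5, 7.35 for Hoxa6 and 7.65 for Hoxa7, and then 6.78 for Hoxa9, 6.42 for Hoxa10, 5.64 for Hoxa11 and 5.54 for Hoxa13. In cluster b they were 6.26 for Hoxb1, 7.08 for Hoxb2, 7.55 for Hoxb3, 7.15 for Hoxb4, 7.08 for Hoxb5, 6.95 for Hoxb6, 6.31 for Hoxb7, 6.60 for Hoxb9 and 4.57 for Hoxb13. The low values at the posterior end of both clusters are probe set values and set no order of transcript amounts. In cluster c the means were 6.86 for Hoxc4, 7.59 for Hoxc5, 8.40 for Hoxc6, 10.75 for Hoxc8, 6.89 for Hoxc9 and 5.65 for Hoxc10, and 4.53 to 4.72 for Hoxc11, Hoxc12 and Hoxc13. In cluster d they were 4.27 for Hoxd1, 6.77 for Hoxd3, 7.78 for Hoxd4, 7.81 for Hoxd8, 6.47 for Hoxd9, 6.36 for Hoxd10, 6.42 for Hoxd11, 4.72 for Hoxd12 and 5.09 for Hoxd13. The RefSeq spans of Hoxa3 with Hoxa4, Hoxa5 and Hoxa6, of Hoxb3 with Hoxb4, of Hoxd3 with Hoxd4 and of Hoxd10 with Hoxd11 overlap, so their probe sets may read shared transcripts, which was not tested.

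**Figure D1:**
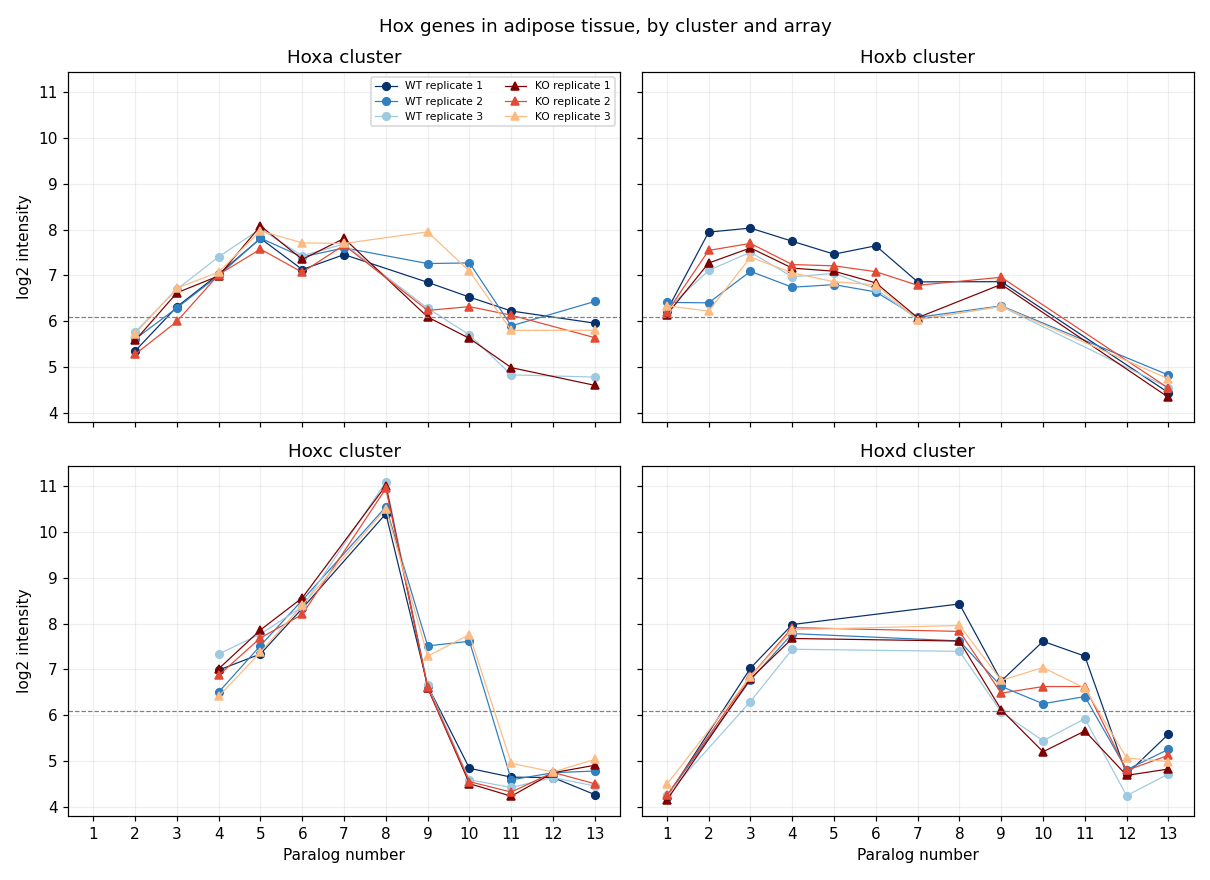
Log2 intensity (vertical axis) of 37 Hox genes against paralog number in the 4 clusters, with 1 line per array (WT circles in blues, KO triangles in reds) and the median of all probe sets as a dashed line at 6.10. The lines of the 6 arrays spread by more than 1 at Hoxa9 to Hoxa13, Hoxc10, Hoxd10 and Hoxd11, and also at Hoxb2, Hoxb4, Hoxb6 and Hoxd8. The median range is 0.66 for paralog numbers 1 to 8 and 0.89 for numbers 9 to 13.

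Hoxc8 and Hoxa5, known from visceral fat, had ranges of 0.69 and 0.51 over the arrays, wider than the 0.38 of the median gene. Hoxc8 was at 10.40, 10.55 and 11.09 in WT replicates 1 to 3 and at 11.01, 10.95 and 10.51 in KO replicates 1 to 3. Hoxa5 was at 7.81, 7.81 and 8.01 in WT and at 8.08, 7.57 and 7.97 in KO. The genotypes overlapped for both genes, and KO minus WT was 0.14 (95% interval -0.39 to 0.68) for Hoxc8 and -0.00 (-0.37 to 0.37) for Hoxa5. Neither difference passed limma's test (adjusted p = 1.0).

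As a set, the Hox genes were less even over the 6 arrays than most genes. The median range (highest minus lowest array) was 0.73 over the 37 Hox genes and 0.38 over all genes, and 0.37 over the genes at or above the median signal. The range exceeded 1 for 11 of the 37 Hox genes (29.7%), against a background of 7.65% of all genes and 7.05% of the genes at or above the median signal. The median SD within a genotype was 0.32 over the Hox genes and 0.14 over all genes. No test was made of these figures, since the genes share the same 6 arrays. Without WT replicate 2 and KO replicate 3 the range exceeded 1 for 5 of the 37 (13.5%), against 4.46% of all genes, and the median range was 0.55 against 0.26.

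The uneven genes were mostly those of high paralog number. Ranges above 1 belonged to 7 of 16 genes of numbers 9 to 13, namely Hoxa9, Hoxa10, Hoxa11, Hoxa13, Hoxc10, Hoxd10 and Hoxd11, and to 4 of 21 genes of numbers 1 to 8, namely Hoxb2, Hoxb4, Hoxb6 and Hoxd8. Within cluster a the step was sharp: ranges were 0.35 to 0.73 from Hoxa2 to Hoxa7 and 1.39 to 1.86 from Hoxa9 to Hoxa13. Hoxb4, at 1.003, and Hoxb6, at 1.007, lay just inside the bound of 1, and Hoxb3, at 0.94, just outside it.

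**Figure D2:**
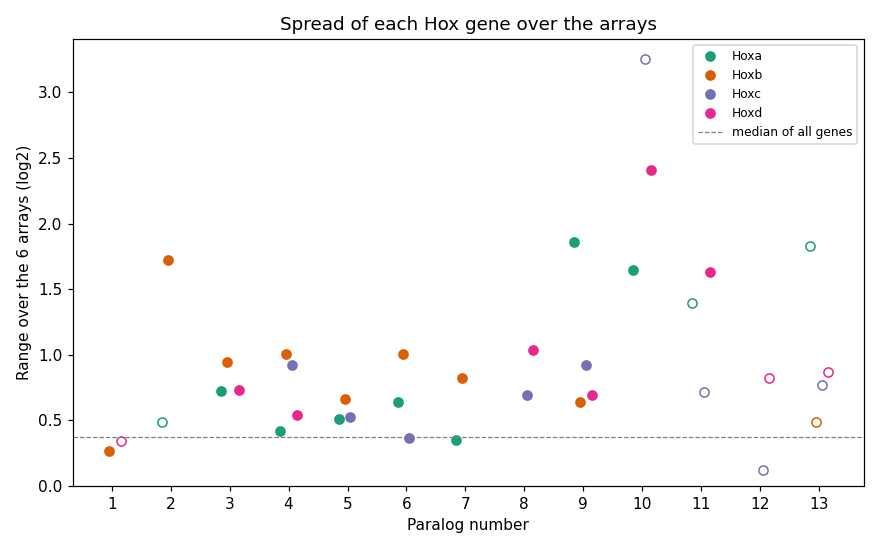
Range of log2 intensity over the 6 arrays (vertical axis) for each of 37 Hox genes by paralog number, coloured by cluster, with filled points for a mean at or above the median signal, open points below it, and the median of all genes dashed at 0.38. Hoxc10 is the highest point at 3.25, followed by Hoxd10 at 2.41.

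Hoxc10, a posterior gene of cluster c known from the lumbar region and the hindlimb, had the widest range of the Hox genes, 3.25, and 0.747% of all genes had a range as wide. Its log2 intensity was 4.84, 7.61 and 4.59 in WT replicates 1 to 3 and 4.51, 4.55 and 7.76 in KO replicates 1 to 3. It was thus high in 1 array of each genotype, and the lower of these, WT replicate 2, exceeded the next array by 2.77. On the other 4 arrays alone the range was 0.33. The neighbouring Hoxc9 followed the same arrays with a smaller step, at 6.64, 7.51 and 6.66 in WT and 6.59, 6.61 and 7.29 in KO. Mir196a-2, the microRNA gene between them, was at 3.97, 4.63 and 3.83 in WT and 3.87, 4.16 and 5.11 in KO, dim but highest on the same pair of arrays. Hoxc8, on the other side of Hoxc9, was not raised there, and Hoxc11, Hoxc12 and Hoxc13 stayed between 4.24 and 5.04 on all arrays. Mir615, the microRNA gene within Hoxc5, was again highest on WT replicate 2 and KO replicate 3. It was at 6.70, 6.99 and 6.82 in WT and 6.63, 6.65 and 7.29 in KO.

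Hoxa9 and Hoxa10, posterior genes of cluster a, were also highest on WT replicate 2 and KO replicate 3. Hoxa9 was at 6.85, 7.26 and 6.28 in WT and 6.09, 6.24 and 7.95 in KO. Hoxa10, known for its part in the uterus and the male tract, was at 6.53, 7.27 and 5.70 in WT and 5.63, 6.32 and 7.09 in KO. The same arrays were the highest pair for 7 of 37 Hox genes (18.9%) and for 16.6% of all genes, a share near the background. Of its dim members, Hoxb13 had a range of 0.49 and Hoxd12 of 0.82.

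WT replicate 1 and KO replicate 2 formed the highest pair for 11 of 37 Hox genes (29.7%), against 8.51% of all genes. These were 7 of 9 genes of cluster b (Hoxb2, Hoxb3, Hoxb4, Hoxb5, Hoxb6, Hoxb7 and Hoxb9), Hoxa11 of cluster a, and Hoxd3, Hoxd4 and Hoxd11 of cluster d. Hoxb2, known for hindbrain patterning, was at 7.94, 6.40 and 7.11 in WT and 7.27, 7.54 and 6.22 in KO. Hoxb3 was at 8.03, 7.09 and 7.50 in WT and 7.60, 7.70 and 7.40 in KO. The end genes of cluster b, Hoxb1 and Hoxb13, did not share this pair. The mean level of the cluster was 7.02 and 6.80 on these arrays against 6.37 to 6.59 on the others. The margin of the pair over the next array was 0.06 for Hoxb9, 0.08 for Hoxb4, 0.10 for Hoxb3 and 0.12 for Hoxb5. It was 0.25 to 0.70 for Hoxb2, Hoxb6 and Hoxb7.

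WT replicate 3 and KO replicate 1 were the lowest pair for 10 of 37 Hox genes (27.0%), against 6.02% of all genes, and 7 of these lay in cluster d and 3 in cluster a. Hoxd10, known for hindlimb motor neurons and the limb, was at 7.61, 6.25 and 5.45 in WT and 5.21, 6.63 and 7.04 in KO, a range of 2.41. Hoxa13, known for the digits and the end of the urogenital tract, was at 5.96, 6.43 and 4.78 in WT and 4.60, 5.64 and 5.80 in KO. Hoxd8, the brightest of cluster d, was at 8.43, 7.62 and 7.40 in WT and 7.62, 7.83 and 7.96 in KO. For Hoxd8 the margin was slight, with KO replicate 1 at 7.620 and WT replicate 2 at 7.623. WT replicate 3 and KO replicate 1 were also the highest pair for 4 of 37 Hox genes (10.8%), near the 8.66% of all genes. These were Hoxa5, Hoxc4, Hoxc5 and Hoxc8.

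Each array therefore had its closest Hox pattern in an array of the other genotype. As a description over 37 genes that share these arrays, Pearson's r between the arrays' deviations from each gene's mean was 0.84 for WT replicate 2 and KO replicate 3, 0.83 for WT replicate 3 and KO replicate 1, and 0.68 for WT replicate 1 and KO replicate 2. The highest r between arrays of the same genotype was 0.18. Over all genes the 3 values were 0.48, 0.36 and 0.66, so the arrays paired in the same way.

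**Figure D3:**
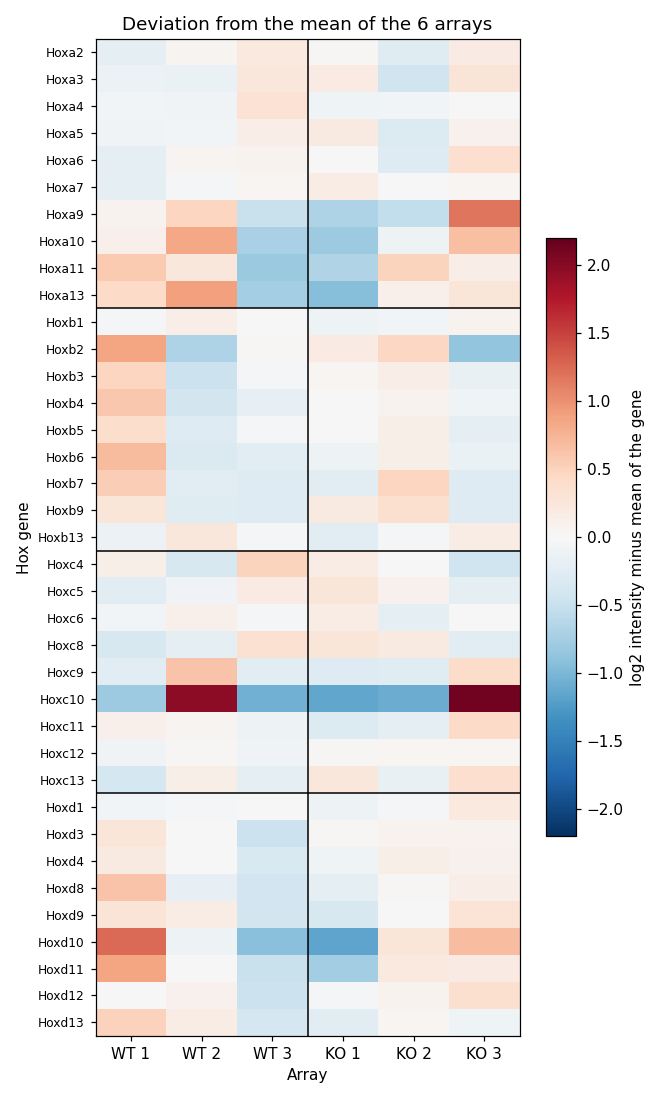
Deviation of log2 intensity from the mean of the 6 arrays (colour, red above and blue below) for 37 Hox genes (rows, by cluster and paralog number) on each array (columns, WT left and KO right of the line). Hoxc10 stands out in WT 2 and KO 3, and most genes of cluster b are highest in WT 1 and KO 2. The posterior genes of clusters a and d are low in WT 3 and KO 1.

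Some lists of genes of other tissues moved with these pairs of arrays, and others did so only in part or not at all. Mean log2 intensity of the 10 skeletal muscle genes reached 8.61 in WT replicate 2 and 8.67 in KO replicate 3, where the remaining arrays had 5.67 to 6.5, and all 10 had a range above 1. That of the 6 brown adipocyte genes was 7.68 and 7.62 against 5.46 to 5.81, and Ucp1, the uncoupling protein of brown fat, was at 8.56 and 8.75 against 4.31 to 4.52. The 4 urothelium genes had a mean of 8.33 in WT replicate 2 alone, against 5.81 to 6.40 elsewhere. The 4 uterus and oviduct genes, all dim, had means of 4.75 and 4.76 on the pair with high Xist, and of 4.48 to 4.53 elsewhere. The clearest step was that of Pgr, at 5.23 and 5.21 against 4.48 to 4.72. Sprr2f was highest on the pair by a small margin, Wnt7a and Msx1 had other highest pairs, and no gene of this list had a range above 1.

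The 6 smooth muscle genes had their highest means, 10.99 and 10.85, on WT replicate 1 and KO replicate 2, and 8.06 to 9.68 elsewhere. Adam7, a gene of the epididymis, was at 10.33 and 9.19 on that pair and at 3.67 to 4.51 elsewhere, while the other 6 measured epididymis genes had ranges below 1 and none of the 7 reached the median signal on average. The 7 mesothelium genes ranged from 8.29 to 9.13 in WT and from 8.33 to 9.22 in KO, and the 7 adipocyte genes from 12.13 to 12.29 and from 12.21 to 12.31. Keratins of simple epithelia in the mesothelium list were highest on WT replicate 1 and KO replicate 2. Krt8 was at 10.16 and 10.10 there, Krt18 at 8.98 and 8.62 and Krt19 at 8.78 and 9.65. Upk3b, at 10.63 and 10.40, and Upk1b, at 9.85 and 8.91, were instead highest on WT replicate 2 and KO replicate 3. Msln and Lrrn4 were highest on WT replicate 2 and KO replicate 2. Of the 7 mesothelium genes, 4 had a range above 1. Epcam, an adhesion protein of epithelia, was highest on WT replicate 1 and KO replicate 2, at 8.99 and 8.05 against 5.27 to 7.75. It is 1 of 6 mammary and skin epithelium genes, of which 3 had a range above 1. Krt14 of that list was highest on the same pair. Krt5, Krt17 and Wap were highest on WT replicate 2 (8.23, 5.04 and 5.74), and Csn3 on KO replicate 3. For lymph node (4 genes, 4.61 to 4.92 over all arrays), mammary and skin epithelium (6 genes, 4.82 to 5.98) and adipose progenitors (6 genes, 9.64 to 10.13) the list means of the genotypes overlapped as well. Whether other tissue in the samples, sex or the depot sampled has a part in the Hox values was not tested.

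**Figure D4:**
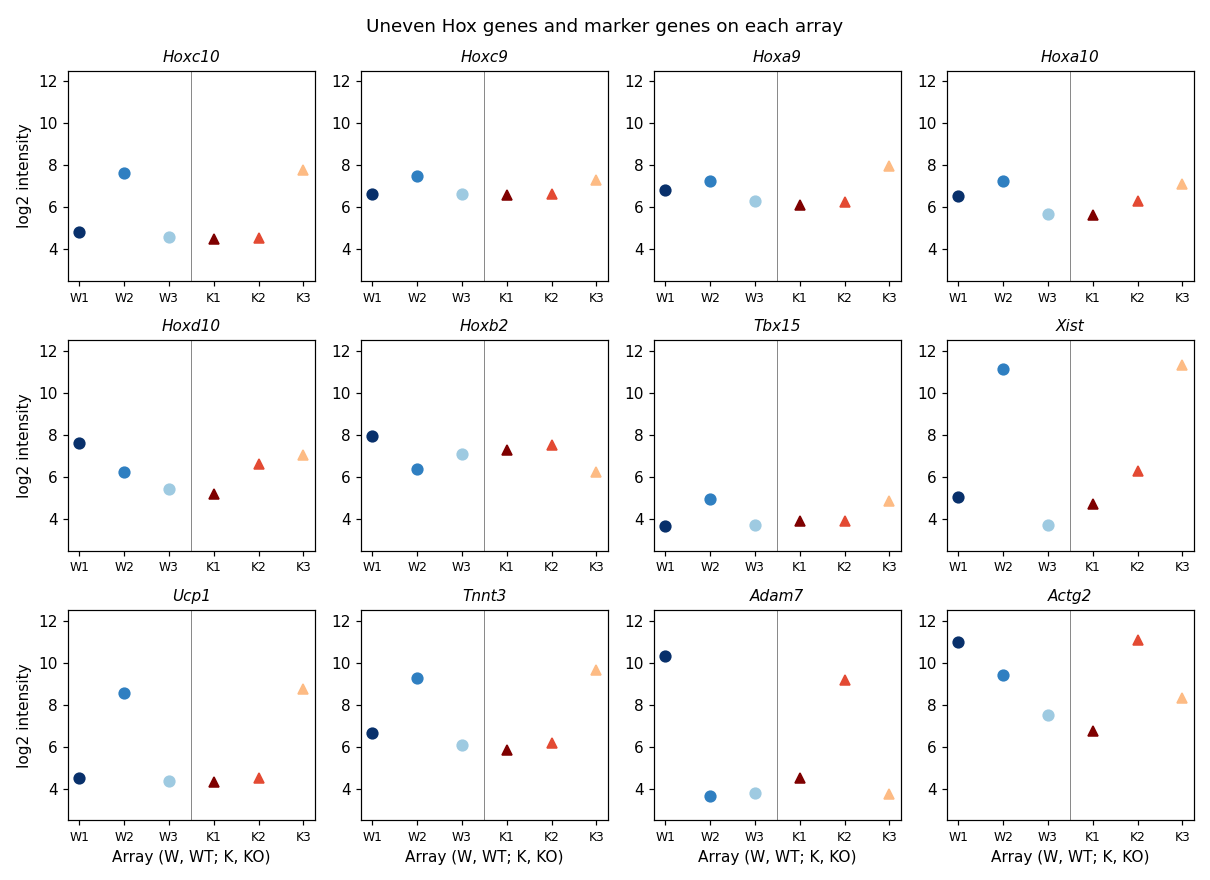
Log2 intensity of 6 uneven Hox genes and 6 other genes on each array (W1 to W3, WT circles; K1 to K3, KO triangles). Hoxc10, Tbx15, Xist, Ucp1 and Tnnt3 are highest on W2 and K3, and Hoxb2, Adam7 and Actg2 on W1 and K2.

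Other developmental genes known to mark fat depots showed a like split in a few members. Of the genes known from subcutaneous fat, Tbx15 was at 3.69, 4.94 and 3.70 in WT and 3.89, 3.89 and 4.88 in KO, and En1 at 4.56, 5.28 and 4.80 in WT and 4.90, 4.84 and 5.27 in KO. Both were thus highest on the arrays with high Hoxc10, though below the median signal. Shox2, Irx3 and Irx5 had ranges below 0.35, and Sfrp2, a secreted Wnt modulator, was at 10.10, 9.75 and 9.94 in WT and 8.96, 9.56 and 9.92 in KO. Of the genes known from visceral fat, Nr2f1, a nuclear receptor, was at 7.07, 5.99 and 6.63 in WT and 6.37, 6.67 and 6.21 in KO, lowest on the pair with high Hoxc10. Thbd of the same list was also lowest on that pair, at 10.11 and 9.75, but by a slight margin, with KO replicate 1 next at 10.14. Wt1, a factor of the mesothelial lineage, was instead highest there, at 7.77, 8.08 and 7.98 in WT and 7.54, 7.68 and 8.15 in KO. Bnc1 was highest there too, at 7.329 and 7.399, and Gpc4 and Tcf21 were neither highest nor lowest on the pair. The mean of the 6 visceral genes was lowest on KO replicate 1 (7.88) and highest on WT replicate 3 (8.13), both outside the pair. The limb factor Tbx5 was at 3.92, 5.85 and 4.64 in WT and 4.55, 4.72 and 5.35 in KO, while Zic1 and Pax3, known from brown fat, had ranges below 0.35 and Epsti1 of 0.62.

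In the comparison of 3 KO with 3 WT arrays, no Hox gene passed limma's test. None of the 37 had an adjusted p under 0.05 (lowest 1.0), against a background of 2 of 34760 probe sets (0.00575%), and none had an unadjusted p under 0.05 in limma or in the methods' t-test, against 0.838% of genes. No Hox gene had WT and KO values that did not overlap, where 4.61% of all genes did. All 37 lay within 1.5-fold, as did 99.6% of all genes, and 13 were above and 24 below 0 with a median log2 difference of -0.03, beside 0.00 over all genes. The median standard error was 0.22 for the Hox genes and 0.12 for all genes. For each of the 37, values spread more widely inside at least 1 genotype than the genotypes differed. Overlap of the groups makes this nearly certain, so it adds nothing to the overlap. By cluster the median difference was -0.02 for a, -0.05 for b, -0.02 for c and -0.01 for d, and by paralog number it was -0.00 for 1 to 4, -0.01 for 5 to 8 and -0.06 for 9 to 13.

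The intervals show what these arrays could not resolve. For Hoxc10 KO minus WT was -0.08 with a 95% interval of -2.85 to 2.69, which is the widest of the Hox genes. Leaving out WT replicate 2 gave 0.89, leaving out KO replicate 3 gave -1.15, and leaving out both gave -0.19 (-0.54 to 0.16). Hoxa13 differed by -0.38 (-1.57 to 0.82), Hoxd10 by -0.15 (-1.76 to 1.47), Hoxa10 by -0.16 (-1.35 to 1.04), Hoxb2 by -0.14 (-1.30 to 1.02) and Hoxa9 by -0.04 (-1.31 to 1.24). The even genes were bounded far more closely, as Hoxa7 at 0.14 (-0.10 to 0.38) and Hoxc6 at -0.02 (-0.30 to 0.27).

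The smallest unadjusted p of the Hox genes, 0.145 in limma (adjusted p = 1.0), belonged to Hoxc13, a gene of hair and nail that was dim here. Hoxc13 was at 4.27, 4.79 and 4.46 in WT and 4.91, 4.51 and 5.04 in KO, a difference of 0.31 (-0.14 to 0.77). Hoxd12 was at 4.72, 4.81 and 4.25 in WT and 4.69, 4.80 and 5.07 in KO, and Hoxc12 at 4.64, 4.75 and 4.64 in WT and 4.75, 4.76 and 4.77 in KO. Both lay below the median signal on average, and their genotypes overlapped. Hoxa7 was at 7.45, 7.60 and 7.69 in WT and 7.81, 7.66 and 7.70 in KO. Hoxa4 was at 7.03, 7.0 and 7.41 in WT and 6.99, 7.02 and 7.07 in KO, and Hoxd13 at 5.59, 5.26 and 4.72 in WT and 4.83, 5.13 and 4.99 in KO. For each of these 6 genes at least 1 KO array lay within the WT range.

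**Figure D5:**
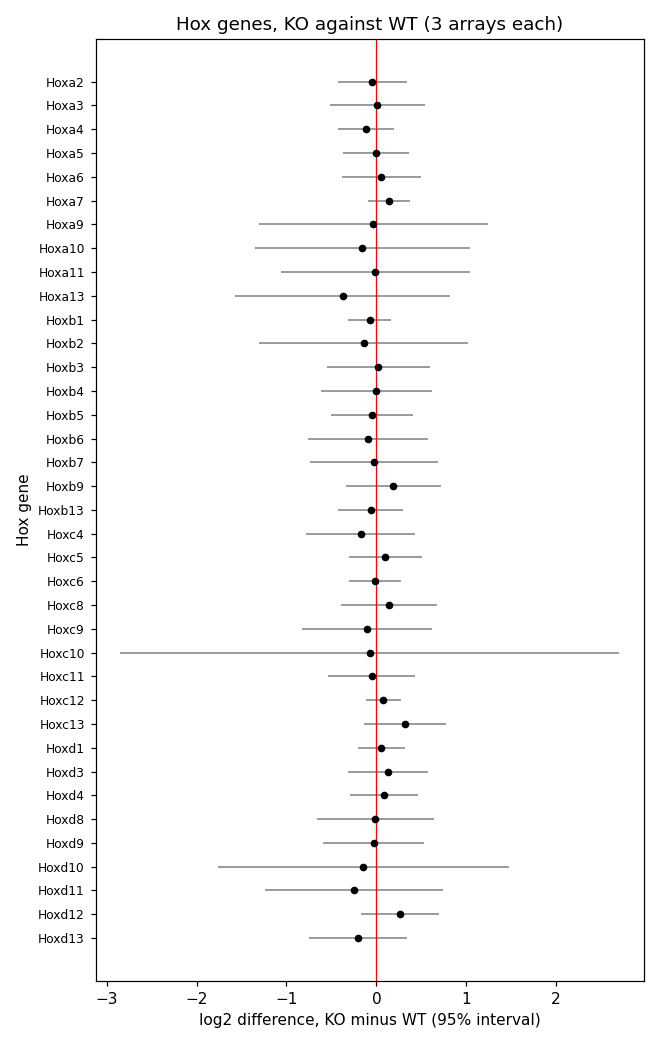
Log2 difference KO minus WT (horizontal axis) of each of 37 Hox genes with its 95% interval from limma, 3 arrays per genotype. Every interval includes 0, and the widest is that of Hoxc10, from -2.85 to 2.69.

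Hox proteins bind DNA with cofactors of the TALE class, and 8 of 9 listed ones were measured. No cofactor passed limma's test at an adjusted or an unadjusted p of 0.05, and 3 lay above and 5 below 0. Meis2 was the least even of them, at 9.20, 8.91 and 8.30 in WT and 8.17, 8.89 and 9.29 in KO, and was lowest on WT replicate 3 and KO replicate 1, as Hoxd10 and Hoxa13 were. Meis3 was at 6.70, 6.86 and 6.96 in WT and 6.97, 7.14 and 7.0 in KO, with no overlap but a difference of 0.20 (-0.06 to 0.45). Pknox1 differed by -0.11 (-0.36 to 0.13), and Pknox2, with a range of 0.69, by 0.06.

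Of 21 listed regulators of the clusters (Polycomb and Trithorax proteins, histone demethylases, Cdx factors, retinoic acid receptors and Ctcf), no gene passed, also not at an unadjusted p of 0.05, and no range exceeded 1, with 15 above and 6 below 0 (median 0.03). Rarb, a retinoic acid receptor, was at 6.00, 6.16 and 6.12 in WT and 6.23, 6.17 and 6.90 in KO, and Kdm6a, an X-linked histone demethylase, at 7.80, 8.20 and 7.92 in WT and 7.86, 7.75 and 8.68 in KO, higher on the pair of arrays with high Xist. Ezh2, the methyltransferase of Polycomb, differed by 0.13 (-0.13 to 0.39). Of 13 measured neighbours of the clusters none passed or had an unadjusted p under 0.05 (8 above and 5 below 0). Hibadh, an enzyme of valine breakdown beside cluster a, was at 10.90, 11.38 and 11.35 in WT and 11.43, 11.26 and 11.60 in KO, and Ttll6, near cluster b, at 4.47, 4.62 and 5.08 in WT and 5.64, 4.66 and 4.75 in KO. Calcoco1 differed by 0.13 (-0.11 to 0.38), and Snx10, a sorting nexin gene with a range of 0.79, by 0.20.

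Among 7 measured noncoding RNAs of the clusters, Mir10a had an unadjusted p of 0.019 in limma (adjusted p = 1.0), where 1.95% of all probe sets had one under 0.05, and of 0.052 in the methods' t-test, which misses that threshold. It was at 4.28, 3.70 and 3.87 in WT and 3.39, 3.59 and 3.30 in KO, all below the median signal, with no overlap and a difference of -0.52 (-0.93 to -0.12). Leaving out the pair of arrays with high Xist gave -0.58. Mir196b was at 5.25, 5.23 and 5.04 in WT and 4.46, 4.90 and 5.38 in KO. Of the depot genes none passed: Sfrp2 differed by -0.45 (-1.04 to 0.15), Thbd, the thrombomodulin gene, by -0.19 (-0.55 to 0.17), and Tcf21, a factor of visceral fat progenitors, by -0.22 (-0.64 to 0.21). The antisense transcripts Hoxaas2 and Hoxd3os1 ranged over 0.50 and 0.13, and neither passed.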

How the data were processed

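Adipose RNA of 3 WT and 3 cavin-3 KO mice was amplified, labelled and hybridised by the authors to Affymetrix Mouse Gene 1.0 ST arrays. Per probe set, the authors deposited an intensity on a linear scale. The submitters' processing notes name RMA, with no version, and the methods name GenePattern modules. No genome build is named in the sources read here. RMA shares 1 distribution among the arrays, so values are relative. Precision is limited by the number of arrays. Scanner files were not analysed here, and detection above background was therefore not assessed.

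After log2 transformation, limma 3.58.1 in R 4.3.3 (lmFit, eBayes, no covariate) fitted the genotype difference for each of the 34760 probe sets, and p-values were adjusted by Benjamini-Hochberg across them. The unit of replication is the array. The study describes separate mice. A Student t-test, named in the methods, was run on the same values as an alternative. Gene names came from the 21640 probe sets with 1 symbol, and the brightest probe set of a gene was used. Each Hox gene had 1. All 37 Hox genes matched RefSeq (GRCm38.p6) by gene ID. The 6 Hox genes with the widest range, the 6 with the smallest unadjusted p, the brightest of each cluster, and Hoxa5, Hoxc8 and Hoxc9 are given on every array. In the lists of pathway and depot genes, genes with an unadjusted p under 0.05 or the 2 smallest p, and the 2 widest ranges, are given. Genes named beyond these, such as En1 and Wt1, were chosen after their values were seen. Members and lists were chosen with earlier results of these data known. The fit was tested on simulated data.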

Additional observations from a re-analysis of the deposited data

How the results depend on the processing

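The number of Hox genes past an adjusted p of 0.05 was 0 under every alternative: the methods' t-test, a trend and robust variance, array weights, repeated quantile normalization, median centring, no dim probe sets, single-symbol probe sets, averaging a gene's probe sets, a replicate block, and without each array or without both WT replicate 2 and KO replicate 3. The median Hox difference stayed within 1 SD of its value, at -0.10 to 0.07 over the alternatives, and was above 0 in some of them, so it has no settled sign. Without single arrays it was -0.08 to 0.07. The Hox genes without overlap, 0 with all arrays, were 1 to 5 without single arrays (lowest on leaving out KO replicate 1, highest on leaving out KO replicate 3) and 8 without both WT replicate 2 and KO replicate 3. Fewer arrays overlap less often by construction. The share over all genes is not given for these smaller sets of arrays, so the counts are not read as a result about the Hox genes. The probe sets called, 2 with all arrays, were 0 with the methods' t-test, 1 with single-symbol probe sets, 0 with a replicate block, 1 to 2 without single arrays (2 only on leaving out WT replicate 1) and 0 without both arrays; the cause was not tested. The Hox genes with an unadjusted p under 0.05, 0 with all arrays, were 0 to 1 without single arrays (1 on leaving out WT replicate 3 or KO replicate 2). The replicate block moved no Hox call. The labels give replicate numbers and no pairing of the mice. Same-numbered arrays correlated at -0.24, -0.50 and -0.04 for numbers 1, 2 and 3 in deviations from the group means over all genes. These values cannot show whether the mice were paired, since other differences between arrays enter them. Of the 17 Hox genes given on every array, 10 changed sign in 26 of 266 refitted differences, among them Hoxc10 (-1.15 to 0.89 without single arrays) and Hoxd10 (-0.64 to 0.44). All 266 moved by less than 1 SD within genotypes, a wide bound for uneven genes (1.77 for Hoxc10), so the differences of those 10 genes have no settled sign. The other genes given on every array kept their sign. Every Hox interval with all arrays includes 0, so the sign of those genes is not settled either. The Mir10a difference was -0.65 to -0.36 without single arrays, and its unadjusted p reached 0.063 in limma on leaving out KO replicate 3 and 0.054 for KO replicate 1. The methods' t-test gave 0.052. The alternatives for Mir10a were chosen after seeing the data.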
